A study of Mus musculus with 24 samples.

Results

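The comparison described here is the interaction of nerve injury and Mef2c vector in the mouse nucleus accumbens: whether the effect of a Mef2c vector on RNA levels differed between injured and sham-operated mice. It was formed as the vector effect in injured mice minus the vector effect in sham mice, and it used all 24 of the 24 libraries of the series, chosen by their group labels alone. The mice were C57BL/6J or DBA/2J and 8 to 9 weeks old, and the sources used here do not say which library came from which strain. The operation was a tibial spared nerve injury (SNI) on the left side, used as a model of chronic neuropathic pain, or a sham in which the nerves were not touched. All mice had an adeno-associated virus (AAV8) injected into the accumbens on both sides, with its payload behind hSyn, a promoter active in neurons. The payload was Egfp alone (Gfp groups) or Mef2c with Egfp (Mef2c groups), with 6 libraries in each of the 4 groups that result (Sham Gfp, Sham Mef2c and their SNI counterparts). The controls therefore carried a virus and Egfp as well, and no group was without virus. Nothing in the labels says whether a library is 1 mouse or a pool, so the tests rest on the scatter among libraries, which may be technical in part.

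Mef2c encodes a member of the MEF2 family, MADS-box transcription factors that respond to neuronal activity and calcium, are held back by class IIa histone deacetylases, and control genes that regulate synapse number. The nucleus accumbens is a ventral striatal region made mainly of medium spiny neurons, GABAergic projection neurons that carry dopamine and opioid receptors, and it takes part in reward and in the affective side of chronic pain. Microglia are its resident immune cells. Type I interferons act on them and on other cells through a cell surface receptor whose signal reaches interferon-stimulated response elements in the promoters of antiviral genes and switches them on.

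Total counts per library lay between 25477019 and 36570108, and 23738 genes were tested. Medium spiny neuron genes were present in all groups, with a group mean of Ppp1r1b between 462.3 and 610.3 CPM (counts scaled to library size) and of Drd2 between 99.2 and 131 CPM. Slc17a7, a vesicular glutamate transporter of cortical neurons, lay anywhere between 1.60 and 1175 CPM, so the cortical content of the tissue punches was uneven. The library SNI Mef2c 1 stood apart, with a mean of 6.39 log2 CPM over medium spiny neuron genes against 7.87 to 8.11 in the other libraries of its group. The labels number the libraries 1 to 24 in blocks of 6 that coincide with the groups, so an effect of that order and the group cannot be told apart.

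Mef2c itself, at chr13:83504034-83667080 (mm10), checked the labels. After sham surgery its level ran from 139 to 212 CPM with Gfp (median 168) and from 123 to 469 CPM with Mef2c (median 229). After injury it ran from 133 to 221 CPM with Gfp (median 152) and from 474 to 832 CPM with Mef2c (median 550.3). All SNI Mef2c libraries lay above all libraries of the other groups, while the libraries labelled Sham Mef2c 2 and 5, at 125 and 123 CPM, lay below every Sham Gfp library. The counts do not separate vector transcripts from those of the mouse's own gene.

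The vector effect on Mef2c was 0.52 (SE 0.25) on the log2 scale in sham mice, with an adjusted p of 0.229 by edgeR's quasi-likelihood test with Benjamini-Hochberg adjustment, the test behind all adjusted p-values below unless another tool is named. In injured mice Mef2c rose with the vector, by 1.86 (SE 0.26, adjusted p = 0.00627). The interaction, the difference of these effects, was 1.34 (SE 0.35, 95% interval 0.60 to 2.08), with an unadjusted p of 0.000984 and an adjusted p of 0.313, so it did not pass. It lay between 1.20 and 1.62 when any 1 library was left out, and was 1.02 without the libraries labelled Sham Mef2c 2 and 5. The injury effect on Mef2c was -0.01 (SE 0.25) with Gfp and 1.33 (SE 0.25, adjusted p = 0.223) with Mef2c. Whether the gap in Mef2c level between the surgeries had a part in the values of other genes was not tested.

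The other family members had smaller interactions, none of which passed. Mef2a gave 0.21 (SE 0.12, 95% interval -0.04 to 0.45), Mef2d 0.13 (SE 0.12, interval -0.12 to 0.38) and Mef2b -0.13 (SE 0.09, interval -0.31 to 0.06). The values of Mef2a and Mef2d turned slightly negative with cortical, septal and pericyte gene levels as covariates. Mef2a overlaps Lysmd4 and is uncertain, because reads were counted over whole gene spans without regard to strand.

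**Figure D1:**
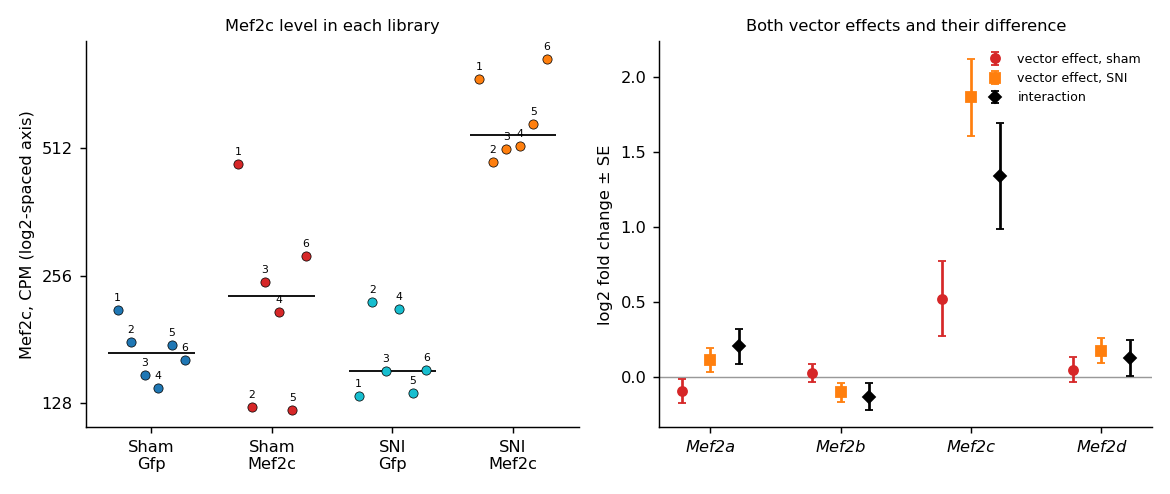
Left, Mef2c in CPM on a log2-spaced axis, 1 numbered point per library and a line at each group's median. Right, both vector effects and the interaction of each MEF2 gene on the log2 scale, with SE. The 6 SNI Mef2c libraries lie above all others, and 2 libraries labelled Sham Mef2c lie below the Sham Gfp libraries.

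Across all genes, none passed the interaction at an adjusted p under 0.05 (0 of 23738, 0.0%). The smallest adjusted p was 0.313, and 1788 genes shared it. An unadjusted p under 0.05 was reached by 3529 genes (14.9%), 1840 with a positive interaction (7.75%) and 1689 with a negative one (7.12%). The median interaction over all genes was 0.00 and its median SE 0.17, against 0.12 for either vector effect on its own. Among genes with at least 1 CPM in a group, 955 had an interaction beyond 1 log2 unit in either direction, 673 of them positive.

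The count turned on 1 library and on the weighting of libraries. Without SNI Gfp 6, 269 genes passed, 260 with a positive (1.09%) and 9 with a negative interaction (0.0377%), and leaving out any other single library gave 0. Limma-voom with weights for library quality called 4120 genes, 2018 positive (8.5%) and 2102 negative (8.86%), and without those weights it called 0. Its weights were lowest for SNI Mef2c 1 (0.208), Sham Gfp 3 (0.338), SNI Gfp 4 (0.492) and SNI Gfp 6 (0.549). DESeq2 called 1 gene, the antibody segment Ighv3-2. Of the 269 genes called without SNI Gfp 6, 268 were also called by limma-voom with weights. The fits share all libraries except SNI Gfp 6, whose share the weights themselves lower, so the overlap is not independent.

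The vector effects that make up the interaction had very different numbers of calls. In sham mice 1882 genes were lower with the Mef2c vector (7.93%) and 351 higher (1.48%), whereas in injured mice none was lower (0.0%) and 1, Mef2c, was higher (0.00421%). At an unadjusted p under 0.05, 2004 genes were lower and 1379 higher in injured mice, and DESeq2 called 433. These counts do not show that the effects differ, which is what the interaction tests. The 1882 genes lower in sham mice had a median vector effect of -1.20 there and -0.47 in injured mice, which share no library with them. Of these genes 93.2% were also below 0 in injured mice, against 50.2% of all genes, and 55.1% reached an unadjusted p under 0.05 for a lower level there, against 8.44% of all genes. Choosing genes by their sham effect by itself favours larger values in sham mice, so the medians are a description.

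The 351 genes higher in sham mice had a median effect of 0.19 in sham and 0.02 in injured mice. In injured mice 64.7% kept their sign and so lay above 0, while of all genes 50.2% lay below 0. For a higher level there, 9.69% of the 351 reached an unadjusted p under 0.05, against 5.81% of all genes. Over all genes the effects in sham and injured mice had a Pearson correlation of 0.71 and a Spearman correlation of 0.04, a description over genes that share libraries within each surgery. Single libraries moved these counts too. In injured mice, 153 genes were called without SNI Gfp 1 (152 lower), 379 without SNI Gfp 2 (354 lower) and 162 without SNI Gfp 5 (161 lower). In sham mice 3602 were called without Sham Gfp 3 (1323 higher), against 2233 with all libraries. The count of higher genes in sham mice varied most with the settings, from 125 with limma-trend on FPKM to 1866 with voom weights. It was 132 with scaling by library size alone, 135 without a filter on low counts and 132 without Sham Gfp 5.

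**Figure D2:**
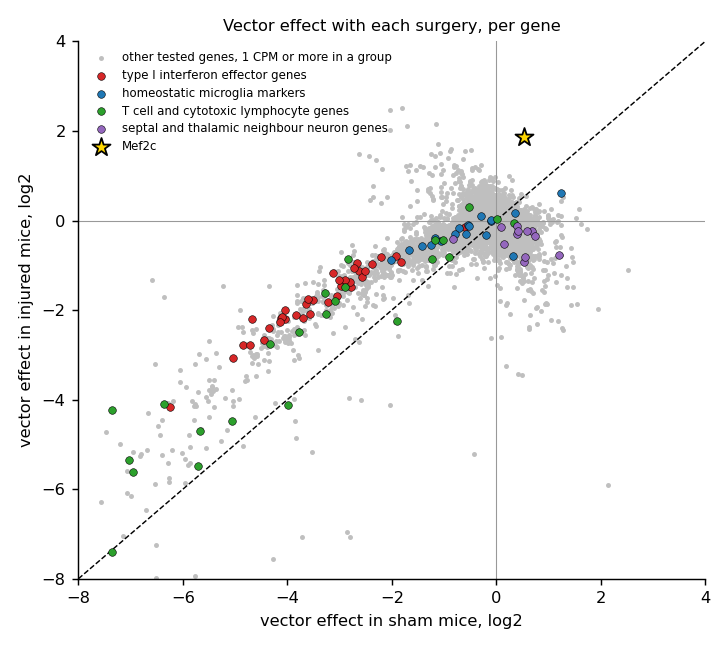
Vector effect in sham mice (x axis) against the effect in injured mice (y axis), log2, 1 point per gene with at least 1 CPM in a group (19698 genes, 14 of them outside the axes). The dashed line marks equal effects. Interferon and T cell genes lie mostly left of 0 and above the line, with values closer to 0 in injured mice, and the star is Mef2c.

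The 20 genes with the smallest unadjusted p are given as values that did not pass, since all had an adjusted p of 0.313. Of these 17 were positive and 3 negative. With the vector, 16 fell in sham mice (7.93% of all genes) and 2 rose (1.48%). Choosing genes by interaction p favours unlike effects in sham and injured mice, so these counts are a description. The first of the 20 was Sult6b1, a sulfotransferase family gene at chr17:78883938-78906992. After sham surgery it ran from 3.11 to 5.31 CPM with Gfp (median 3.78) and from 1.78 to 2.02 with Mef2c (median 1.88). After injury it ran from 2.04 to 2.80 CPM with Gfp (median 2.30) and from 1.83 to 2.11 with Mef2c (median 1.98). Only Sham Gfp was high in every library, the sham groups did not overlap, and the injured groups overlapped by a narrow margin.

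The vector effect on Sult6b1 was -1.05 (SE 0.12, adjusted p = 0.000139) in sham and -0.26 (SE 0.12, adjusted p = 0.315) in injured mice, for an interaction of 0.78 (SE 0.16, unadjusted p = 8.295e-05). Sult6b1 also stood in a list of genes that differ between C57BL/6J and DBA/2J or lie near such genes. That list had 9 measured members, 6 of them positive, 3 with an unadjusted p under 0.05, and a median of 0.40. Sult6b1 and its neighbour Eif2ak2, also an interferon effector gene, were among those 3. Nnt, which is partly deleted in C57BL/6J, had group means between 19.6 and 21.4 CPM, and Glo1, duplicated in DBA/2J, between 52.4 and 56.2 CPM. A part of strain in the interaction was not tested.

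Kcnk12, a subunit gene of the K2P potassium channels at chr17:87745801-87797994, went the other way. After sham surgery it ran from 6.80 to 8.80 CPM with Gfp (median 7.59) and from 8.67 to 10.4 with Mef2c (median 9.94). After injury it ran from 7.79 to 10.6 CPM with Gfp (median 9.33) and from 6.85 to 9.37 with Mef2c (median 8.08). Libraries with Mef2c were thus the higher ones after sham surgery and the lower ones after injury, with overlap in both. Kcnk12 rose with the vector in sham mice, by 0.35 (SE 0.09, adjusted p = 0.011), and its effect in injured mice was -0.21 (SE 0.09, adjusted p = 0.293), for an interaction of -0.56 (SE 0.13). The other negative values were Zfp963 at -0.40, which overlaps Gm20422 and is uncertain, and Ube2d2a, a ubiquitin-conjugating enzyme, at -0.22 (SE 0.06).

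Of the 20 genes, 3 stood in the immune lists: Mx2, Tlr3 and Aim2. Gpr84, a receptor for medium-chain fatty acids on myeloid cells, ran from 2.18 to 4.60 CPM in the Sham Gfp libraries and from 0.628 to 0.901 in the Sham Mef2c libraries. In injured mice it ran from 0.641 to 2.10 CPM with Gfp and from 0.712 to 1.06 with Mef2c. Every Sham Gfp library stood above all libraries of the other groups. Its interaction was 1.43 (SE 0.35, 95% interval 0.71 to 2.16).

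Mx2, an interferon-induced antiviral GTPase, ran from 7.86 to 25.7 CPM with Gfp and from 2.36 to 3.68 with Mef2c in sham mice, and from 2.81 to 14.7 and from 2.85 to 4.02 in injured mice. The SNI Gfp libraries again spanned the gap between low and high. Its interaction was 1.68 (SE 0.44), with vector effects of -2.73 (adjusted p = 0.000161) in sham and -1.05 (adjusted p = 0.154) in injured mice. Tlr3, the receptor for double-stranded RNA, gave 0.92 (SE 0.23), and Ccdc88b, a gene with a role in T cell and myeloid function, 1.04 (SE 0.27). Aim2, a cytosolic DNA sensor, gave 0.55 (SE 0.14) but overlaps Cadm3 and is uncertain.

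The remaining positive genes besides Mef2c were S100a13, Tdrd7, Plgrkt, Polg2, Ptbp3, Ddias, Cmtm6 and Ntpcr, from 0.24 (Tdrd7) to 0.74 (Ddias), and Bco2 and Naprt, which overlap Il18 and Eef1d. Cmtm6 stabilizes PD-L1 at the cell surface, Plgrkt is a plasminogen receptor, Polg2 is a subunit of the mitochondrial DNA polymerase, and Ptbp3 is an RNA-binding splicing regulator. In injured mice the vector effects of several were close to 0, with Tdrd7 at 0.01, Ptbp3 at 0.02, S100a13 at 0.03, Polg2 at 0.05 and Plgrkt at -0.05, none passing. Without SNI Gfp 6, 16 of the 20 passed the interaction, against 1.09% of all genes positive and 0.0377% negative. The 20 were chosen by p on mostly the same libraries, so their passing is no independent result.

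**Figure D3:**
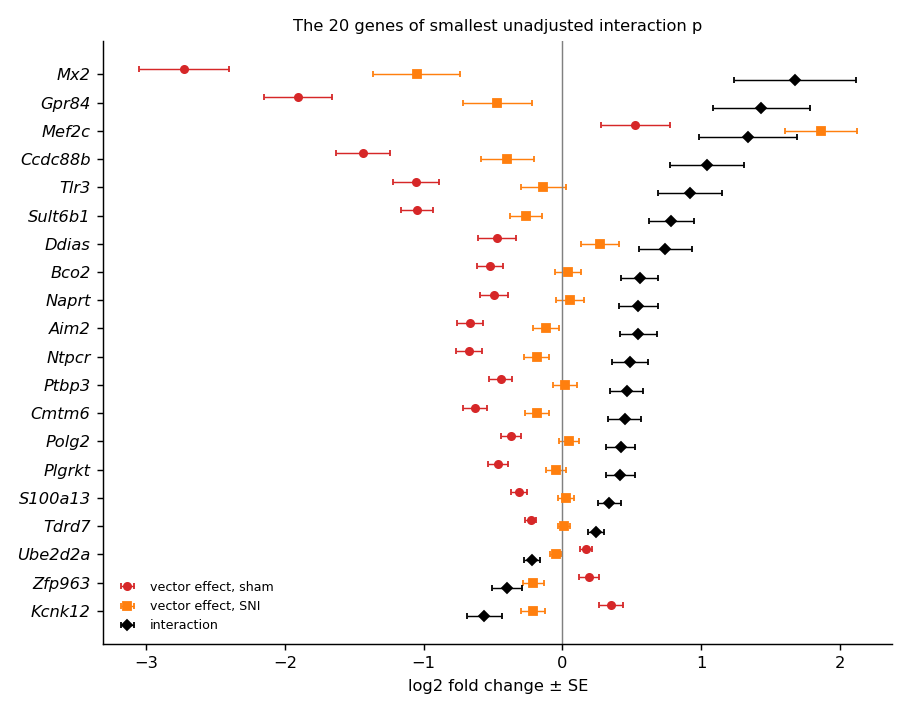
The 20 genes of smallest unadjusted interaction p, ordered by interaction: vector effect in sham mice (circles), in injured mice (squares) and their difference (diamonds), log2 with SE. In sham mice 16 of the 20 fell with the vector (7.93% of all genes), while in injured mice most lie near 0. Choosing genes by interaction p favours such a gap, so it is a description. Mef2c has its larger effect in injured mice, as does Zfp963 by a narrow margin (0.19 in sham and -0.21 in injured mice).

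All 36 measured interferon effector genes had a positive interaction, 34 with an unadjusted p under 0.05, which 7.75% of all genes reached in that direction. Their median interaction was 1.70, against 0.00 for all genes, and none passed the adjusted test. Median vector effects were -3.37 in sham mice, where 36 of 36 fell, and -1.76 in injured mice, where none passed. Seen along the other factor, the median injury effect was -1.61 with Gfp and 0.05 with Mef2c. Without SNI Gfp 6, 21 of the 36 passed, against 1.09% of all genes in that direction, and the median was 2.20.

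Rsad2, which encodes viperin, an antiviral radical SAM enzyme, ran from 8.07 to 21.3 CPM with Gfp (median 19.2) and from 1.88 to 3.63 with Mef2c (median 2.52) in sham mice. Injured mice had 1.89 to 13.8 CPM with Gfp (median 3.90) and 2.64 to 3.40 with Mef2c (median 2.98). The sham groups did not overlap, and SNI Gfp held both low and high libraries. The interaction was 1.71 (SE 0.50, unadjusted p = 0.00248, 95% interval 0.66 to 2.76). Eif2ak2, the double-stranded RNA-activated kinase PKR, gave 1.39 (SE 0.39), and Cmpk2, a nucleotide kinase beside Rsad2 in the genome, 0.44 (SE 0.12).

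Regulators of the interferon response were positive in 19 of 19, 14 with an unadjusted p under 0.05, at a median of 0.60, and 15 of 19 fell with the vector in sham mice. Stat2, at chr10:128270559-128292849, ran from 54.0 to 160.2 CPM with Gfp (median 108) and from 21.9 to 27.4 with Mef2c (median 24.3) in sham mice. Injured mice had 24.7 to 94.7 CPM with Gfp (median 30.9) and 23.5 to 40.3 with Mef2c (median 27.5). Only Sham Gfp was high throughout. The interaction of Stat2 was 1.51 (SE 0.41, unadjusted p = 0.00123), its vector effects -2.17 (SE 0.30) and -0.66 (SE 0.29), and its injury effect with Gfp -1.26 (SE 0.29, adjusted p = 0.0929). Irf9, its DNA-binding partner, gave 1.31 (SE 0.43), Irf5 0.55 (SE 0.17) and the kinase gene Tyk2 0.60 (SE 0.18), all uncertain because they overlap Rnf31, Tnpo3 and 1700084C06Rik.

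Interferon-gamma inducible GTPases, which attack the vacuoles of intracellular microbes, were positive in 14 of 14, with 4 under an unadjusted p of 0.05 and a median of 1.69. All 14 fell in sham mice, at a median of -4.76, and the median in injured mice was -3.18. Gbp7, at chr3:142530342-142550149, ran from 37.1 to 152 CPM with Gfp and from 4.66 to 7.06 with Mef2c in sham mice, and from 6.23 to 80.1 and from 5.54 to 9.41 in injured mice. The SNI Gfp libraries 4 and 6 held 44.8 and 80.1 CPM, inside the Sham Gfp range, and the others of that group at most 10.2. Its interaction was 1.97 (SE 0.72, 95% interval 0.46 to 3.48). Gbp3 gave 1.88 (SE 0.77), Gbp5 1.95 (SE 0.86) and Irgm1 1.70 (SE 0.82).

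The 250 bases before the RefSeq start sites of 3 of these genes (GRCm38.p6) are shown because each holds the core letters of an interferon-stimulated response element (GAAA, any 2 bases, GAAA, searched on both strands), given in capitals. Eif2ak2 was looked up too and gave no such match. For a gene with several start sites, the first with a match was taken. Stat2 is from chr10:128270248-128270497 on the plus strand, Rsad2 from chr12:26456453-26456702 on the minus strand and Gbp7 from chr3:142530086-142530335 on the plus strand, each written 5′ to 3′ along its gene.
Stat2: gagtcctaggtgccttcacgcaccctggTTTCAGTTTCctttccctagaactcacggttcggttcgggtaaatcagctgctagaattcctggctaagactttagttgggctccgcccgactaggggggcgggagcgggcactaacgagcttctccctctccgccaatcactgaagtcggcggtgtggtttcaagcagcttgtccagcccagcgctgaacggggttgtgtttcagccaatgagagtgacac
Rsad2: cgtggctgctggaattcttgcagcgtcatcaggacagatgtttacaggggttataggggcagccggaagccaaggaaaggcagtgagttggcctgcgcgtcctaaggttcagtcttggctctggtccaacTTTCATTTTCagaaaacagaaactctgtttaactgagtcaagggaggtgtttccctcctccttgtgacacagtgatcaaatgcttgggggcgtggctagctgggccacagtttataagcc
Gbp7: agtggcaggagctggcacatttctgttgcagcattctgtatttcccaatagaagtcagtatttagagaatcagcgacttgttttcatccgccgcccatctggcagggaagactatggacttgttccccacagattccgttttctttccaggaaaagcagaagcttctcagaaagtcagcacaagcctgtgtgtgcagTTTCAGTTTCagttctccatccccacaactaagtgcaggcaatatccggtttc

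The match began 222 bases before the start in Stat2, 120 in Rsad2 and 53 in Gbp7. In windows of 250 bases before to 50 after the start, 13 of the 26 interferon effector genes with a RefSeq window held these letters (50%), as did 9 of 10 GTPases (90%), 5 of 17 MHC class I genes (29.4%) and 3 of 18 regulators (16.7%). Among all tested genes with a window the share was 3.84%. None of 17 T cell genes and 1 of 12 microglia markers held them. Lists outside the immune ones varied too. The letters were in 4 of 16 activity-induced genes (25%), 3 of 15 neuronal MEF2 target genes (20%) and 4 of 23 ribosomal protein genes (17.4%). None of 17 medium spiny neuron genes held them. The share in regulators is thus not particular to interferon lists. The core of a MEF2 site (CTA, any 4 bases, TAG, both strands) was in 2 of 26 interferon effector genes and 1 of 15 neuronal MEF2 target genes, against 3.95% of all tested genes with a window. Such a match is a run of letters and shows no binding.

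Sensors and antigen presentation genes had the same sign. Of 19 nucleic acid sensors and Toll-like receptors 18 were positive, 15 with an unadjusted p under 0.05, and 1 was negative with such a p, at a median of 1.09. Ddx58, which encodes the RNA sensor RIG-I, gave 1.31 (SE 0.41), and Tlr7, a receptor for single-stranded RNA, 1.35 (SE 0.43). All 20 MHC class I presentation genes were positive, 9 with an unadjusted p under 0.05, at a median of 1.30, and all 20 fell in sham mice. Tapbp, the peptide-loading chaperone tapasin, gave 0.70 (SE 0.28), and Psme2, a subunit of the proteasome activator PA28, 0.58 (SE 0.24). H2-T22, a class Ib gene that overlaps A930015D03Rik, gave 1.14 (SE 0.39), and Psmb10, an immunoproteasome subunit that overlaps Gm16156, 0.68 (SE 0.25).

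All 11 MHC class II genes were positive at a median of 0.70, 3 of them with an unadjusted p under 0.05, and their mean over SNI Gfp libraries ranged from 0.91 to 5.78 log2 CPM. Ctss, the protease cathepsin S of this pathway, ran from 224.5 to 433 CPM with Gfp and from 62.5 to 86.7 with Mef2c in sham mice, and from 68.9 to 332.5 and from 62.3 to 72.5 in injured mice. Its interaction was 1.06 (SE 0.43). Ciita, the class II transactivator, gave 1.24 (SE 0.55) and overlaps Dexi, and H2-DMa, a peptide exchange factor, 0.44 (SE 0.19) and overlaps Brd2. Cytokines and chemokines were positive in 18 of 21 at a median of 1.00, 3 with an unadjusted p under 0.05 (7.75% of all genes). Il1a gave 1.09 (SE 0.31) and overlaps Gm14023, and Tgfb1 gave 0.66 (SE 0.27).

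Complement genes were positive in 13 of 16, 8 with an unadjusted p under 0.05, at a median of 1.22. C1qa, a subunit of the initiator C1q, ran from 101 to 279 CPM with Gfp and from 29.9 to 43.9 with Mef2c in sham mice, and from 34.1 to 199.7 and from 31.3 to 41.0 in injured mice. Sham Gfp was again the group that was high throughout. The interaction of C1qa was 1.23 (SE 0.49), that of Itgb2, a chain of complement receptors, 1.47 (SE 0.53), and those of Itgam and Cfb, which overlap Gm49368 and Gm20547, 0.82 (SE 0.25) and 1.20 (SE 0.47).

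Homeostatic microglia markers were positive in 14 of 18, 12 with an unadjusted p under 0.05 and 1 negative with such a p, at a median of 0.41. Csf1r, the receptor that keeps microglia alive, ran from 168.5 to 273 CPM with Gfp and from 84.4 to 113 with Mef2c in sham mice, and from 89.8 to 209.6 and from 94.4 to 110.5 in injured mice. No Mef2c library reached the Sham Gfp range, and SNI Gfp libraries lay on both sides of the gap. Its interaction was 0.77 (SE 0.24, 95% interval 0.27 to 1.27). Cx3cr1, the fractalkine receptor, gave 0.40 (SE 0.12), Tmem119, a microglial surface protein, 0.72 (SE 0.23), and Selplg, a selectin ligand, 0.49 (SE 0.16). In bulk tissue, fewer cells of a type and less RNA per cell cannot be told apart.

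All 20 disease-associated microglia genes were positive, 8 with an unadjusted p under 0.05, at a median of 0.65, and 18 fell in sham mice. Tyrobp, a signalling adaptor, gave 1.01 (SE 0.35), Trem2, its partner receptor, 0.86 (SE 0.30), Axl, a receptor for dying cells, 0.69 (SE 0.24), and Ctsz, a lysosomal protease, 0.93 (SE 0.31). Reactive astrocyte genes were positive in 16 of 19 at a median of 0.49, 2 with an unadjusted p under 0.05 (7.75% of all genes). These were Gfap, the intermediate filament of astrocytes, at 1.29 (SE 0.59), and Osmr, the oncostatin M receptor, at 1.23 (SE 0.47). Both fell with the vector in sham mice, by 1.87 and 1.85 on the log2 scale.

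T cell and cytotoxic genes were positive in 22 of 26 at a median of 1.08, with 3 under an unadjusted p of 0.05 (7.75% of all genes). In sham mice 22 of 26 fell (7.93% of all genes). Several were near 0 with the Mef2c vector, among them Cd8a, a co-receptor of cytotoxic T cells, without a count in any Sham Mef2c library, so the fitted values depend on the prior count and the median is no bound. Ptprc, the leukocyte phosphatase CD45, ran from 13.7 to 62.2 CPM with Gfp and from 4.28 to 6.52 with Mef2c in sham mice, and from 5.05 to 38.0 and from 4.52 to 5.97 in injured mice. In SNI Gfp, libraries 4 and 6 (23.2 and 38.0 CPM) lay in the Sham Gfp range and the other 4 below it. The interaction of Ptprc was 1.42 (SE 0.62, unadjusted p = 0.0312), that of Cd28, a T cell co-stimulator, 1.98 (SE 0.78), and that of Lck, a T cell receptor kinase, 0.74 (SE 0.32). B cell genes were positive in 8 of 12 at a median of 0.45, with 1 under an unadjusted p of 0.05 (7.75% of all genes). This was Cd22, a B cell lectin, at 1.60 (SE 0.65).

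Without SNI Gfp 6 the medians of several immune lists were more than 1.5 times as high: 2.59 for the GTPases, 2.03 for MHC class I, 1.62 for MHC class II, 1.82 for cytokines, 1.77 for T cell genes, 0.95 for B cell genes and 0.96 for reactive astrocyte genes. Other libraries moved some of them down, to 0.40 for MHC class II without Sham Gfp 2 and 0.23 for B cell genes without Sham Gfp 1. List means by library show the same split. The mean over interferon effector genes was between 3.51 and 5.43 log2 CPM in the 6 Sham Gfp libraries and between 1.31 and 1.93 in all 12 Mef2c libraries. In SNI Gfp it was 1.50, 1.64, 2.72, 3.94, 1.86 and 4.72 in libraries 1 to 6, so libraries 4 and 6 lay within the Sham Gfp range and libraries 1, 2 and 5 within the range of the Mef2c groups. The T cell mean was between 0.58 and 2.79 in Sham Gfp, at 1.84 and 2.17 in SNI Gfp 4 and 6, and between -1.33 and -0.91 in the other 16 libraries. SNI Gfp 4 and 6 did not share a cortical level, with Slc17a7 at 558 and 4.73 CPM.

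**Figure D4:**
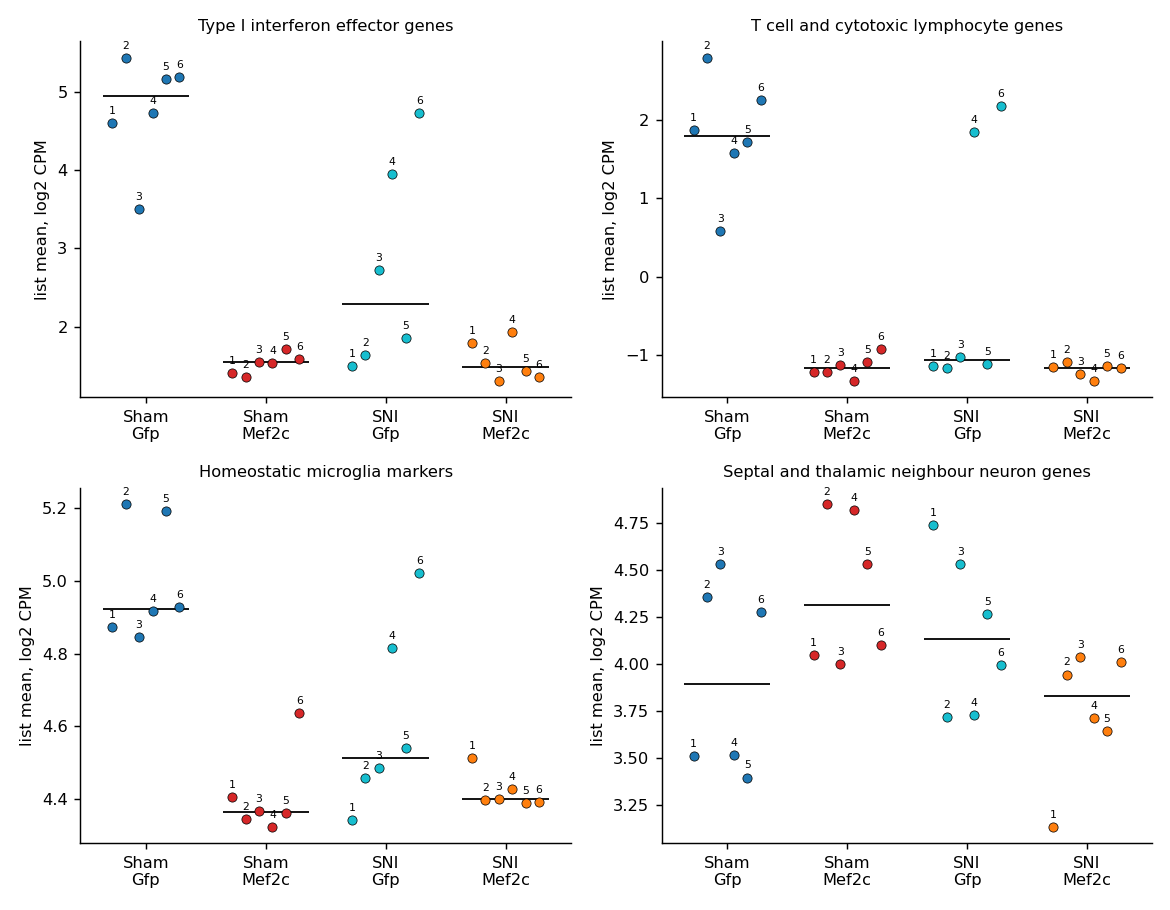
Mean log2 CPM over the members of 4 lists, 1 numbered point per library and a line at each group's median. Interferon and T cell lists are high in all Sham Gfp libraries and in SNI Gfp 4 and 6. Microglia markers are highest in Sham Gfp, SNI Gfp 4 and SNI Gfp 6 and span a narrower range, and in the septal and thalamic list the groups overlap.

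Neuronal MEF2 target genes were positive in 20 of 23, 4 with an unadjusted p under 0.05, at a median of 0.34. Gadd45b, an activity-induced factor in DNA demethylation, ran from 7.40 to 14.4 CPM with Gfp and from 5.53 to 9.41 with Mef2c in sham mice, and from 5.52 to 13.1 and from 8.25 to 12.4 in injured mice. The groups overlapped with each other. It fell with the vector in sham mice, by 0.68 on the log2 scale (SE 0.19, adjusted p = 0.0229), and its effect in injured mice was 0.16 (SE 0.19), for an interaction of 0.85 (SE 0.27). Nptx2, a synaptic pentraxin, gave 0.87 (SE 0.36), Jun, a subunit of the AP-1 factor, 0.58 (SE 0.23), and Fmr1, the fragile X protein that acts with MEF2 in synapse elimination, 0.16 (SE 0.07). Nptx2 was at 57.9 CPM in SNI Mef2c 1, against 18.3 to 29.0 in the others of its group. The highest SNI Gfp value of Nptx2 was 34.0 CPM, in library 4.

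Activity-induced genes as a list were positive in 21 of 22, 4 with an unadjusted p under 0.05, at a median of 0.47 (0.27 to 0.71 with 1 library left out), with the nuclear receptor gene Nr4a2 at 2.61 (SE 1.21). Cortical glutamatergic genes were positive in 15 of 17, 1 with an unadjusted p under 0.05 (7.75% of all genes). Their median of 0.45 was 1.16 without SNI Gfp 4 and 0.23 without Sham Gfp 5. Slc17a7 gave 3.87 (SE 1.93, 95% interval -0.15 to 7.89) and Emx1, a cortical transcription factor, 2.59 (SE 1.10). In SNI Mef2c 1, Slc17a7 was at 1175 CPM, against 4.10 to 228 in the others of its group. Emx1 was at 21.5 there against 0.62 to 3.74 CPM, and Nr4a2 at 43.7 against 1.38 to 11.7 CPM. SNI Gfp 4, which counts the other way, was the highest of its group for these genes, at 558, 6.99 and 37.5 CPM. With the mean of the cortical list as a covariate, the median was 0.06 for MEF2 targets and 0.06 for activity-induced genes, and it was 1.50 for interferon effector genes and 0.33 for microglia markers. With cortical, septal and pericyte means as covariates these medians were 0.00, -0.15, 1.16 and 0.25 in the same order. Other immune lists had values closer to 0 or below it with the 3 covariates, with MHC class II at 0.29, cytokines at 0.39 and B cell genes at -0.20, the last at 0.01 with the cortical covariate alone.

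Medium spiny neuron identity genes were positive in 20 of 23, none with an unadjusted p under 0.05 in either direction, at a median of 0.29 that became -0.10 with the 3 covariates. Pde10a, a striatal phosphodiesterase, gave 0.54 (SE 0.48) and Rasd2, a striatal small G protein, 0.57 (SE 0.37). Both turned negative with those covariates, as did Tbr1, a cortical transcription factor, from 2.35 (SE 1.19). Tbr1 was at 163.6 CPM in SNI Mef2c 1, against 2.47 to 28.2 in the others of its group. The highest SNI Gfp value of Tbr1 was 76.6 CPM, in library 4. Tbr1 is a member of the cortical list, so the covariate holds its own level and its reversal is no separate result. Opioid, cannabinoid and dopamine genes were positive in 15 of 22, at a median of 0.20 that was 0.06 with the cortical covariate and -0.05 with all 3. Under an unadjusted p of 0.05, 2 were positive (7.75% of all genes) and 3 negative (7.12% of all genes). The positive ones were Daglb, an enzyme of endocannabinoid synthesis, at 0.25 (SE 0.11), which overlaps Rac1 and is uncertain, and Maob, a monoamine oxidase, at 0.22 (SE 0.10). Among the negative ones were Oprm1, the mu-opioid receptor, at -0.40 (SE 0.17), and Pnoc, the precursor of nociceptin, at -1.21 (SE 0.53).

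Septal and thalamic neuron genes were negative in 11 of 12, 5 with an unadjusted p under 0.05, which 7.12% of all genes reached in that direction, at a median of -0.76. Zic1, a transcription factor of septal neurons, ran from 25.4 to 42.5 CPM with Gfp and from 27.7 to 95.5 with Mef2c in sham mice, and from 31.7 to 66.2 and from 30.6 to 55.5 in injured mice. All groups overlapped. Its interaction was -0.92 (SE 0.35), that of its paralog Zic2 -1.09 (SE 0.43) and that of neuroglobin (Ngb) -1.96 (SE 0.70). The list median was -0.40 with the cortical covariate.

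Striatal interneuron genes were negative in 11 of 16, 5 with an unadjusted p under 0.05 and 1 positive with such a p, at a median of -0.45 that was -0.15 with the cortical covariate. Chat, the acetylcholine synthesis enzyme of cholinergic interneurons, gave -0.82 (SE 0.37), Lhx6, a transcription factor of interneurons from the medial ganglionic eminence, -1.33 (SE 0.55), and the neurokinin receptor Tacr3 -2.18 (SE 0.79). GABA receptor and synthesis genes were negative in 17 of 20, 4 with an unadjusted p under 0.05, at a median of -0.29 that was -0.08 with the cortical covariate. Gabrb1, a GABA-A receptor subunit, gave -0.25 (SE 0.10), and Slc6a11, the astrocytic GABA transporter GAT3, -1.18 (SE 0.46).

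Synaptic adhesion genes were negative in 15 of 24, 4 with an unadjusted p under 0.05, at a median of -0.10. Nrxn3, a presynaptic neurexin, and Adgrl3, a latrophilin, rose with the vector in sham mice, by 0.27 (adjusted p = 0.0376) and 0.25 (adjusted p = 0.0267), and had interactions of -0.31 (SE 0.12) and -0.22 (SE 0.10). Cntnap2, an axonal neurexin-like protein, gave -0.59 (SE 0.25). In Sham Mef2c 6, Nrxn3 was at 605 CPM, against 436.6 to 480 in the other libraries of that group. There Adgrl3 was at 218.7 against 168.4 to 177.6 CPM, and Cntnap2 at 515.1 against 239.5 to 268.7 CPM. Cntnap2 was also low in SNI Mef2c 1, at 126.6 CPM against 222.2 to 250.1 in the others of its group. Potassium channel genes were positive in 17 of 25 at a median of 0.20 (0.12 to 0.30 with 1 library left out), which was -0.07 with the cortical covariate and with all 3. Under an unadjusted p of 0.05 none of them was positive (7.75% of all genes) and 2 were negative (7.12% of all genes). These were Kcnb2 at -0.87 (SE 0.33) and Kcnd3 at -0.51 (SE 0.23).

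Among glial genes, those of myelin were negative in 18 of 18, 4 with an unadjusted p under 0.05, at a median of -0.30. Fa2h, a fatty acid hydroxylase of myelin lipids, gave -0.51 (SE 0.19), and Cldn11, a myelin tight junction claudin, -0.39 (SE 0.16). Homeostatic astrocyte genes were split, 7 positive and 9 negative, at a median of -0.04. Under an unadjusted p of 0.05, 3 were positive (7.75% of all genes) and 3 negative (7.12% of all genes). Aqp4, the water channel of astrocyte endfeet, fell with the vector in sham mice by 0.64 on the log2 scale (adjusted p = 0.014), and its effect in injured mice was 0.01, for an interaction of 0.65 (SE 0.24). Gjb6, which encodes connexin 30, gave -1.05 (SE 0.31).

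Vessel-wall and choroid plexus lists rested on single libraries. Pericyte, smooth muscle and fibroblast genes were negative in 16 of 18, 5 with an unadjusted p under 0.05, at a median of -0.87 that was -0.21 without SNI Gfp 3. Acta2, smooth muscle actin, was at 66.8 CPM in that library and at most 14.7 in the others, and its interaction of -2.40 (SE 0.91) was -0.76 without it. Choroid plexus and ependymal genes had a median of -0.59, which was -0.15 without SNI Gfp 6 and -1.44 without SNI Mef2c 3. Ttr, the choroid plexus carrier transthyretin, was at 810.3 CPM in SNI Gfp 6 and at most 50.3 in the others, and its interaction of -8.04 (SE 2.33) was -1.02 without that library. SNI Gfp 6 is also the library without which 269 genes passed, and the part of its choroid plexus content in that count was not tested.

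**Figure D5:**
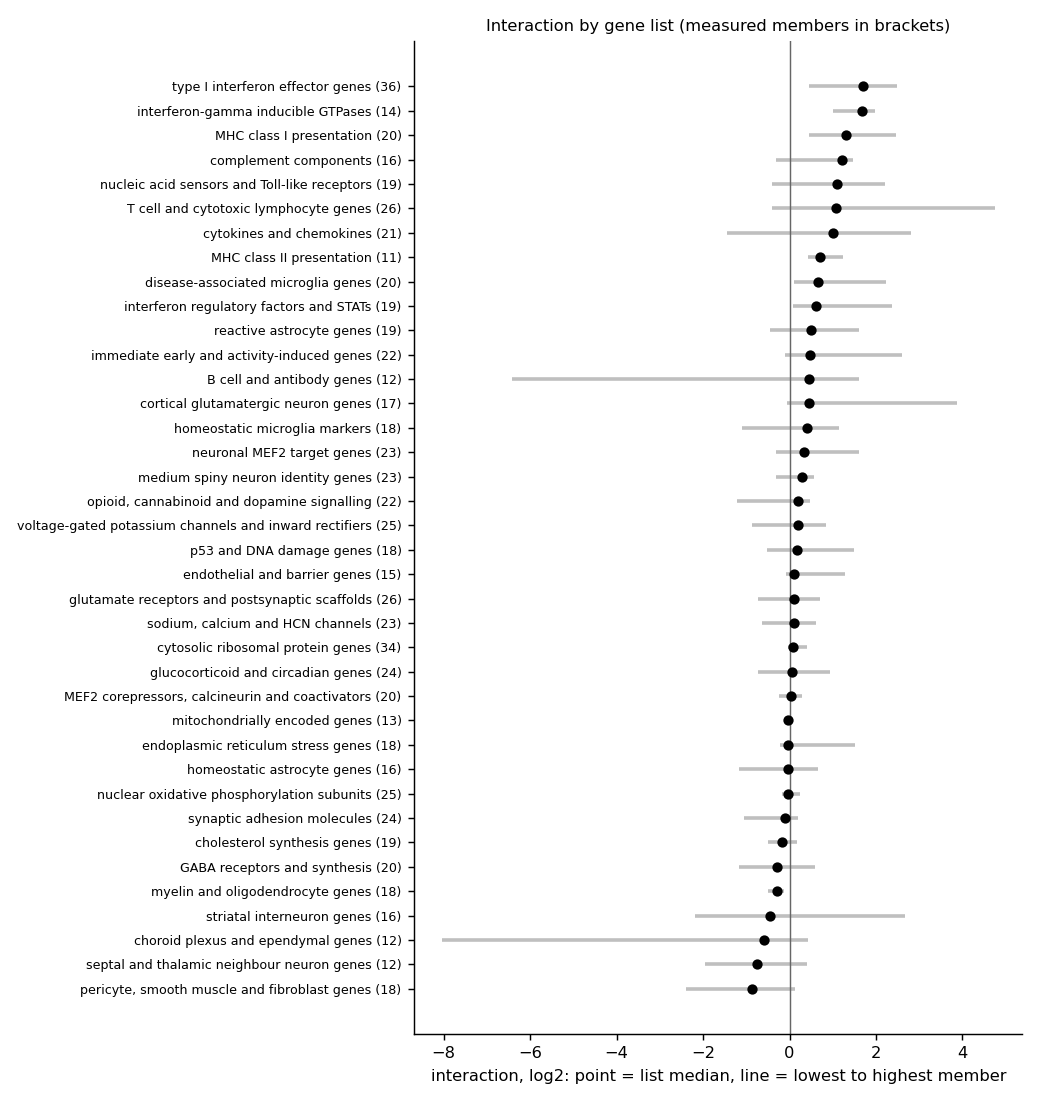
Interaction (log2) of 38 lists with at least 10 measured genes: points are list medians and lines run from the lowest to the highest member. Interferon effector genes are at the top with a median of 1.70, and pericyte genes are at the bottom with -0.87.

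Lists of general cell functions had medians near 0. Nuclear oxidative phosphorylation genes had a median of -0.05, mitochondrially encoded genes -0.03, endoplasmic reticulum stress genes -0.03, and glucocorticoid and circadian genes 0.05. Ribosomal protein genes were positive in 31 of 34 at a median of 0.09, 4 with an unadjusted p under 0.05 (7.75% of all genes). Rps27a gave 0.41 (SE 0.12). P53 and DNA damage genes were positive in 15 of 18 at a median of 0.16, 4 with an unadjusted p under 0.05 (7.75% of all genes). Among them Cdkn1a, the cell cycle inhibitor p21, gave 0.94 (SE 0.30). MEF2 corepressors, calcineurin and coactivators were positive in 12 of 20 at a median of 0.04. Under an unadjusted p of 0.05, 1 was positive (7.75% of all genes) and 2 were negative (7.12% of all genes). Carm1, an arginine methyltransferase that acts with MEF2C, gave -0.12 (SE 0.04), Ep300, an acetyltransferase coactivator, -0.12 (SE 0.04), and Med12, a Mediator subunit, 0.25 (SE 0.11).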

How the data were processed

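RNA of punched accumbens tissue, isolated with TRIzol and chloroform and made into libraries with an Illumina stranded mRNA kit per the labels' protocols, was measured in 24 libraries. The authors deposited raw counts per gene and FPKM. Per the submitters' processing notes, featureCounts and mm10 were used. Aligner, annotation, tool version and strand setting: not given in the sources used here. Of 55401 gene IDs, 55141 matched a symbol. For 99.22% of values above 0 the deposited FPKM equalled count per library total per gene span, introns included (relative tolerance 1e-06), so genes that overlap one with more counts are named as uncertain.

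Counts were tested with edgeR 4.0.16 in R 4.3.3 (filterByExpr, TMM scaling, robust quasi-likelihood fit, 1 coefficient per group, 20 residual degrees of freedom). P-values are two-sided, with Benjamini-Hochberg adjustment over 23738 genes and a threshold of 0.05. Intervals are 95% and not adjusted. CPM values carry TMM scaling, and for list means log2 CPM was taken with prior count 2. The fit was tested on simulated data. The members and lists were chosen with earlier results of these data known. Named were the MEF2 family, the 20 smallest p-values (at least 1 CPM in a group, no predicted genes) and up to 4 members of each of 43 lists by p. Ppp1r1b, Drd2, Nnt, Glo1, Cd8a and Ighv3-2 fall outside that rule and were named after their values were seen. Alternatives used DESeq2 1.42.0 and limma 3.58.1. No library was a copy of another of its group (chi-square over genes at least 3.22 per degree of freedom). Promoter windows are RefSeq's on GRCm38.p6.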

Additional observations from a re-analysis of the deposited data

Results flagged for a closer look

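Among 264 groups of 6 libraries, 17 held a library whose gap to its nearest neighbour, as a share of the group's range, exceeded Dixon's 95% critical value, and chance gives about 1 in 20 groups. SNI Mef2c 1 accounted for 8. In log2 CPM it was low for medium spiny neuron genes (6.39), opioid, cannabinoid and dopamine genes (4.50) and GABA genes (7.30). It was high for Ptbp3 (4.99), IRF and STAT genes (4.08), microglia markers (4.51), homeostatic astrocyte genes (7.80) and endothelial genes (4.62). Sham Mef2c 6 was high for microglia markers (4.64), B cell genes (1.36) and synaptic adhesion genes (7.42). Single values were high for Plgrkt in SNI Gfp 6 (5.36), pericyte genes in SNI Gfp 3 (4.66) and choroid plexus genes in SNI Mef2c 3 (2.25), and low for Gpr84 in Sham Mef2c 3 (-0.53). Ddias was low in Sham Mef2c 4 (0.11) and in SNI Mef2c 4 (0.27).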

How the results depend on the processing

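The interaction count was 0 under other scalings and filters, limma-trend on the deposited FPKM with a pseudocount of 1 or 0.1, voom without quality weights (chosen after seeing the data), the covariates, and without the libraries labelled Sham Mef2c 2 and 5. DESeq2 gave 1 and voom with quality weights 4120, and leaving out 1 library gave 0 to 269. The vector effect in sham mice gave 4437 genes with voom weights and 1731 to 3602 when 1 library was left out. The effect in injured mice gave 433 with DESeq2, 13 with voom weights and 1 to 379 when 1 library was left out. The cause was not tested.

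Same-numbered libraries did not deviate together: 9 of 36 pairs correlated above 0.1 (range -0.43 to 0.279) and 1 of 24 libraries was closest to its own number. The replicate block gave 0 interaction genes, 1935 in sham mice and 1 in injured mice.

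Of 101 named genes in 37 settings, the interaction reversed for 5. With the cortical covariate Mef2d was -0.027 and Tbr1, itself a member of the cortical list, -0.31. With 3 covariates Mef2a was -0.028, Mef2d -0.10, Tbr1 -0.059, Rasd2 -0.16 and Pde10a -0.14. With voom weights 85 of the 101 passed, against 8.5% of all genes positive and 8.86% negative. Without SNI Gfp 6, 43 passed, against 1.09% and 0.0377% of all genes. Most of the 101 were named by their p in these data, so these counts are no independent result. Scaling by library size moved the median interaction of all genes by -0.01.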
